A study of Bos indicus with 12 samples.

Results

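The genes described here are 7 genes of the ribosome and of translation: RPS2, RPS27, RPL22 and RPL39 of the cytosolic ribosome, the translation factors EIF6 and EEF1D, and MRPS31 of the mitochondrial ribosome. They were chosen by name from the genes that the study listed as lower in estradiol-treated cows, and they are 7 of the 24616 Ensembl gene IDs in the count table. The difference between treated and untreated cows was therefore used to choose them, and it is given below as a description with no test. The study's filter and test also favour genes with little spread between cows of the same group, so that a small spread is no finding either, and cow E0952 was singled out by its RPS2. Later pregnancy, the mapping of the libraries, circulating progesterone and the co-variation of the genes between cows of the same group were not used to choose the genes.

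RNA was sequenced from the endometrium, the inner lining of the uterus, of 12 multiparous suckled Nelore cows (Bos indicus) in anestrus, that is, with no corpus luteum at the start. Each of the 6 ECP cows was injected with 1 mg of estradiol cypionate, a long-acting estradiol ester, when the progesterone device was removed, and each of the 6 CON cows was left without it. Before that, both groups had been given 2 mg of estradiol benzoate and had carried an intravaginal progesterone device for 8 days, with cloprostenol (a luteolytic prostaglandin analogue) at its removal. At 48 h after removal all cows received 10 µg of buserelin, a GnRH agonist, and were inseminated, and the biopsy was taken 6 days later from cows with a new corpus luteum. Within each group, 3 cows were later pregnant and 3 were not. By the study's methods animals showing estrus were taken for the ECP group and animals not showing it for the CON group, so that the ester and the display of estrus cannot be told apart in these samples. The study also chose these cows for similar follicle diameter at device removal and similar progesterone at the biopsy. Both pregnancy outcomes were represented in each group by choice.

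A ribosome is built of a small and a large subunit, each made of ribosomal RNA and of proteins that are needed in fixed proportion, and the mRNAs of the cytosolic ribosomal proteins are among the most abundant of a cell. Initiation factors bring the subunits together on an mRNA, and elongation factors deliver aminoacyl-tRNA while the protein chain grows. Mitochondria have a ribosome of their own, whose proteins are encoded in the nucleus and which makes subunits of the respiratory chain.

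Total counts were 8637917 to 15015055 in ECP libraries and 10662044 to 12765968 in CON libraries. Levels are given as normalized counts, the read count divided by the DESeq2 size factor of the library, and they are not corrected for gene length, so that they compare cows for a gene and not genes with each other. The study's filter asked that the mean of a gene's normalized counts exceed both 5 and the standard deviation of those counts, and 14814 gene IDs passed it, all 7 genes included. Counting noise as a coefficient of variation, taken as the inverse root of a gene's lowest count, was 0.0090 for RPS2, 0.0390 for EIF6 and 0.0754 for MRPS31. For EIF6 and MRPS31 it was not small against the variation between ECP cows (4.56% and 9.20%). The lowest count of any of the 7 genes in a library was 176 reads, for MRPS31, and the biological coefficient of variation estimated by edgeR was 0.0986 for EIF6 and 0.109 for RPS2, against a median of 0.195 over all genes. Reads were kept only where they mapped uniquely and the strand used in counting was not stated. Mammalian genomes hold many processed copies of the genes for cytosolic ribosomal proteins, and in a RefSeq annotation of another cattle assembly NUP210L overlaps RPS27, so the levels of RPS2, RPS27, RPL22 and RPL39 are uncertain to that extent. In whole biopsies, fewer cells of a type and less RNA per cell cannot be told apart.

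RPS2 encodes a protein of the small subunit that sits near the channel through which the mRNA enters. Its normalized counts were 15988, 16802, 17098, 17233, 17270 and 20395 in ECP cows, against 21028, 21592, 21626, 21882, 22157 and 22320 in CON cows. The 2 groups did not overlap, and a gap separated 5 of the ECP cows from the sixth, cow E0952. The mean was 17464 ± 1512 in ECP cows, against 21768 ± 462 in CON cows (SD, n = 6 per group), that is 19.8% lower in ECP, with a log2 fold change of -0.31 (SE 0.07). The CON cows held RPS2 within a coefficient of variation of 2.12%, against 8.66% in ECP cows and 3.14% in ECP cows without E0952.

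RPS27, a zinc-finger protein of the small subunit, had normalized counts of 1851, 2244, 2305, 2468, 2616 and 2767 in ECP cows, against 2582, 2704, 2864, 3331, 3870 and 4041 in CON cows. The ranges overlapped: 4 of the 6 ECP cows lay below the lowest CON cow, X228, and cows C317 and B0646 lay above it. The mean was 26.5% lower in ECP (2375 ± 322 in ECP cows and 3232 ± 618 in CON cows, SD, n = 6 per group), with a log2 fold change of -0.44 (SE 0.13).

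RPL22 is an RNA-binding protein of the large subunit. Its normalized counts were 4120, 4441, 5002, 5053, 5346 and 5951 in ECP cows, against 5307, 5666, 6062, 6724, 7186 and 7820 in CON cows. Here too 4 ECP cows lay below all CON cows, and the same pair, C317 and B0646, lay inside the CON range. The log2 fold change was -0.37 (SE 0.11), a mean 22.8% lower in ECP.

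RPL39 encodes a very small protein of the large subunit that lines the tunnel through which the new chain leaves. Its normalized counts were 3134, 3687, 4077, 4136, 4840 and 4987 in ECP cows, against 4560, 5112, 5591, 5972, 6031 and 6426 in CON cows. Again C317 and B0646 were the 2 ECP cows inside the CON range, and among CON cows only X228 lay below the highest ECP cow. The mean was 26.2% lower in ECP, with a log2 fold change of -0.43 (SE 0.12).

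EIF6 binds the large subunit, takes part in its maturation and keeps it from joining the small subunit until it is released. Its normalized counts were 873, 917, 936, 942, 977 and 992 in ECP cows, against 1034, 1109, 1121, 1149, 1153 and 1162 in CON cows. The groups did not overlap and both were narrow, with coefficients of variation of 4.56% in ECP and 4.23% in CON. The mean was 16.2% lower in ECP, with a log2 fold change of -0.25 (SE 0.06), the smallest of the 7.

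EEF1D is a subunit of the exchange factor that reloads elongation factor eEF1A with GTP. Its normalized counts were 3078, 3336, 3354, 3509, 3521 and 3530 in ECP cows, against 3564, 3723, 4074, 4271, 4389 and 4543 in CON cows. The groups were separated only by the narrow gap between ECP cow E1010 and CON cow E0040, and they overlapped when the libraries were scaled by TMM or by the upper quartile. The mean was 17.3% lower in ECP, with a log2 fold change of -0.27 (SE 0.08).

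MRPS31 encodes a protein of the small subunit of the mitochondrial ribosome. Its normalized counts were 201, 205, 209, 237, 243 and 245 in ECP cows, against 214, 280, 289, 313, 320 and 322 in CON cows. A single CON cow, 1814, lay inside the ECP range, and the other 5 CON cows lay above all ECP cows. The mean was 22.9% lower in ECP, with a log2 fold change of -0.37 (SE 0.11).

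**Figure D1:**
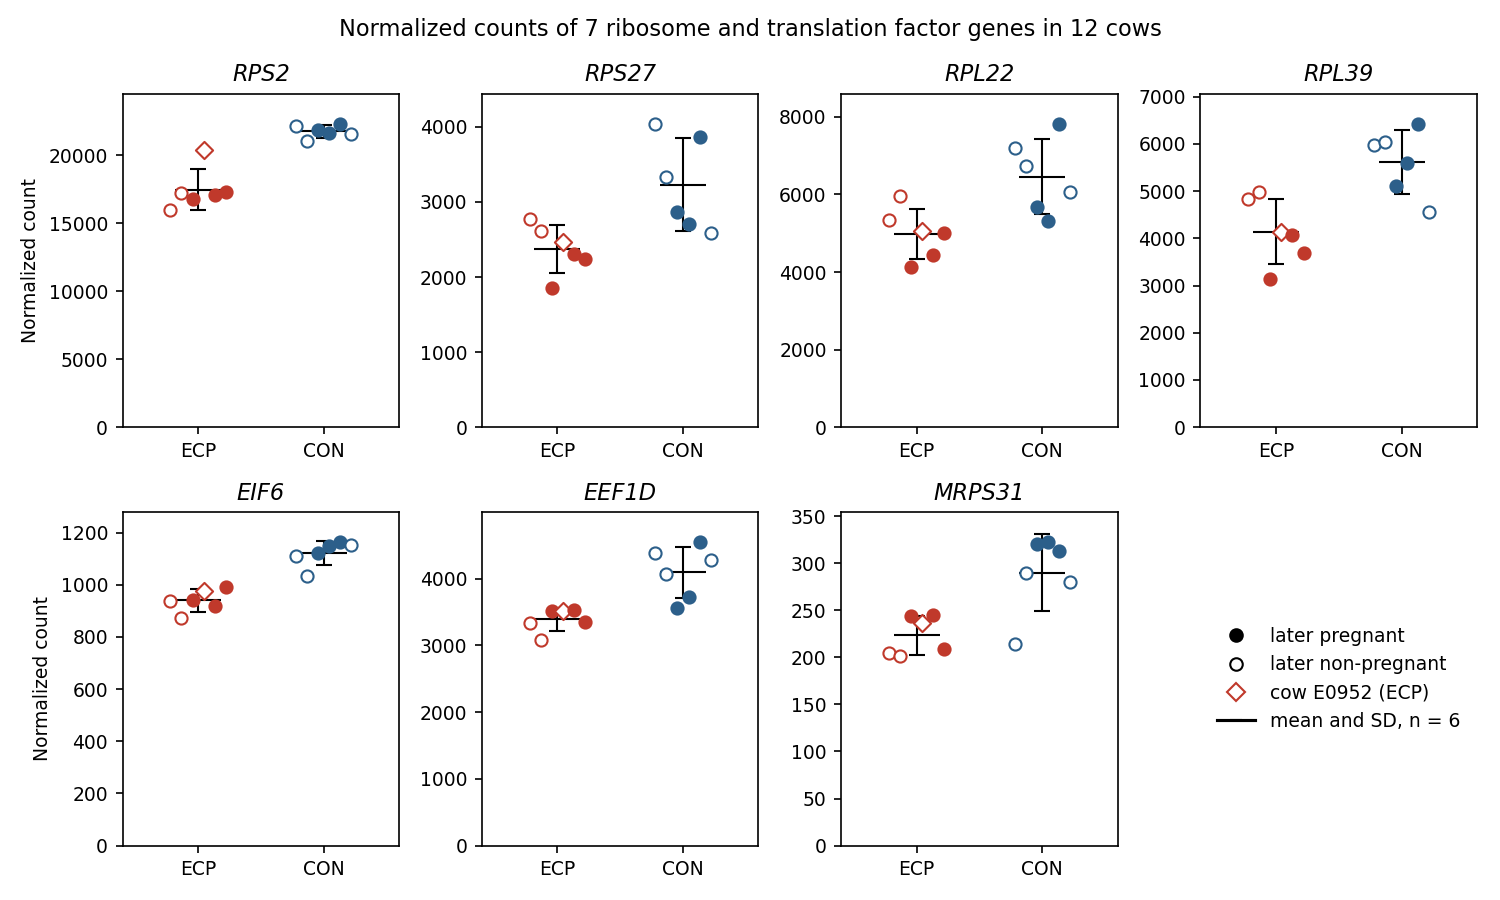
Normalized counts (vertical axis, from 0) of the 7 genes in 6 ECP cows (left) and 6 CON cows (right) of each panel; filled points are later pregnant cows, open points later non-pregnant cows, the diamond is cow E0952, and the bar gives the mean and SD. ECP and CON cows do not overlap for RPS2, EIF6 and EEF1D, and the CON cows are tightest for RPS2, at a coefficient of variation of 2.12%.

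In 3 of the 7 genes (RPS2, EIF6 and EEF1D) the highest ECP cow was still below the lowest CON cow, a pattern that 0.304% of all genes tested showed; under TMM or upper quartile scaling it was 2 of the 7, RPS2 and EIF6. Since these genes were chosen on this contrast, nothing is read from that count. For each of the 7 genes all 6 ECP cows lay below the CON mean, which the choice of the genes favours as well. The share of all genes with that pattern was not computed. Over the 7 genes the median log2 fold change was -0.37, against a median near 0 over all genes tested (0.0020), and it stayed between -0.38 and -0.31 when each cow was left out in turn. With edgeR, 0% of all genes were lower in ECP at an adjusted p of at most 0.10.

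Relative to RPS2 in the same library, a measure that needs no scaling, the other genes differed little between the groups. The RPL39 count was 23.9 ± 4.76% of the RPS2 count in ECP cows and 25.8 ± 3.05% in CON cows, and the RPL22 count was 28.7 ± 4.40% in ECP cows and 29.7 ± 4.12% in CON cows (SD, n = 6 per group). The EIF6 count was 5.40 ± 0.41% of the RPS2 count in ECP cows and 5.15 ± 0.17% in CON cows. The ranges of the groups overlapped for each of the 6 ratios. RPS2 and the other genes were all chosen as lower in ECP, so close ratios follow in part from that choice. Nothing is read from them.

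The size of the difference was compared between later pregnant and later non-pregnant cows (3 ECP and 3 CON cows in each). For RPL39 the log2 fold change was -0.64 (SE 0.16) in later pregnant cows and -0.24 (SE 0.14) in later non-pregnant cows, the widest split of the 7 genes, and the interaction was -0.40 (SE 0.21, adjusted p = 0.912, edgeR). RPS27 had -0.55 (SE 0.17) in later pregnant and -0.34 (SE 0.17) in later non-pregnant cows. EEF1D went the other way, at -0.17 (SE 0.14) in later pregnant and -0.36 (SE 0.10) in later non-pregnant cows, with an interaction of 0.18 (SE 0.16, adjusted p = 0.936). RPS2 and EIF6 hardly moved: their interactions were -0.08 (SE 0.16) and -0.02 (SE 0.13). None of the 7 genes passed the interaction test in edgeR, and 0% of all genes did (777 of 14814 at an unadjusted p under 0.05; limma voom called 0 and DESeq2 13 genes, none of the 7).

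Libraries also differed in the share of reads that mapped, and the study's read statistics split them into 6 with a lower and 6 with a higher share, 3 ECP and 3 CON cows in each. Later pregnancy was not balanced over these classes. In ECP, B0646 and C317 of the lower class were later non-pregnant, and D160 and X156 of the higher class later pregnant. In CON, E0040 and E0406 of the lower class were later pregnant, and 1814 and X228 of the higher class later non-pregnant. The split by mapping class is therefore not independent of the split by later pregnancy. Among the lower libraries the log2 fold changes were -0.20 (SE 0.13) for RPS27, -0.26 (SE 0.13) for RPL39 and -0.16 (SE 0.15) for RPL22. Among the higher libraries they were -0.68 (SE 0.19) for RPS27, -0.64 (SE 0.16) for RPL39 and -0.58 (SE 0.13) for RPL22. All 3 fold changes were smaller in the lower libraries, as was that of EEF1D, at -0.19 (SE 0.11) in lower and -0.35 (SE 0.09) in higher libraries, and the lower libraries of ECP include C317 and B0646, the 2 ECP cows inside the CON range for RPS27, RPL22 and RPL39. RPS2 (-0.35 in lower and -0.29 in higher libraries) and EIF6 (-0.27 in lower and -0.24 in higher libraries) kept their size, and MRPS31 had -0.51 (SE 0.15) in lower and -0.24 (SE 0.18) in higher libraries. A test of treatment by mapping class, added after these values were seen, gave 0.46 (SE 0.24, adjusted p = 0.559) for RPS27, 0.40 (SE 0.21, adjusted p = 0.559) for RPL22, 0.36 (SE 0.21, adjusted p = 0.609) for RPL39 and 0.15 (SE 0.13, adjusted p = 0.720) for EEF1D in edgeR. With edgeR 0% of all genes passed (1439 at an unadjusted p under 0.05), and DESeq2 called 177 genes, none of the 7.

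**Figure D2:**
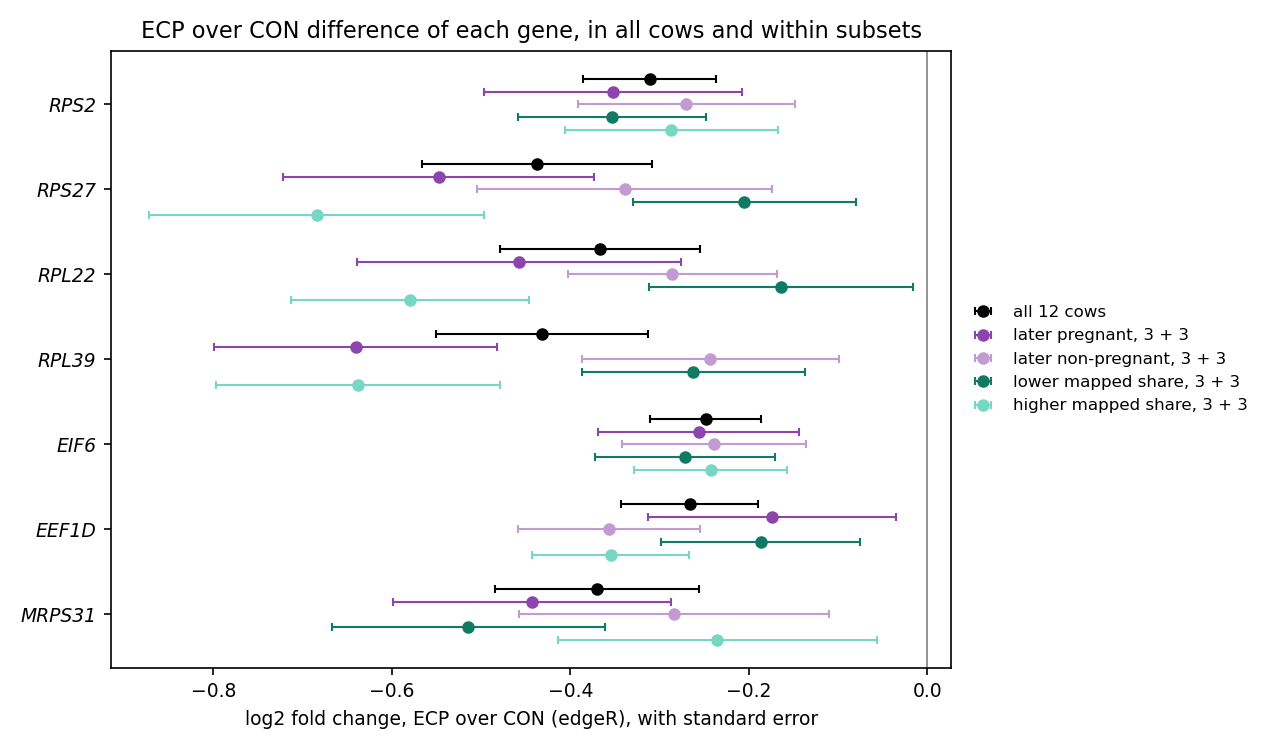
Log2 fold change of ECP over CON from edgeR (horizontal axis, points) with its standard error (bars) for each gene in all 12 cows and in 4 subsets of 3 ECP and 3 CON cows. RPS27, RPL22 and RPL39 spread from -0.16 to -0.68 over the subsets, whereas RPS2 stays between -0.27 and -0.35 and EIF6 between -0.24 and -0.27.

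Over all cows, with treatment in the model, the mapping class itself separated none of the 7 genes. The largest difference of lower against higher libraries was 0.16 (SE 0.11, adjusted p = 0.794) for RPL39, followed by -0.14 (SE 0.07, adjusted p = 0.684) for EEF1D. Of all genes 0.00675% passed this test in edgeR, and the other 5 genes lay between -0.07 and 0.06 on the log2 scale.

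Later pregnant and later non-pregnant cows were compared to ask whether the level of these genes at the biopsy differed with the outcome of the insemination. With treatment in the model, none of the 7 genes passed in edgeR, and neither did any other gene (0%; 481 of 14814 at an unadjusted p under 0.05, and 0 in DESeq2 and in limma voom). RPS27 had a log2 difference of -0.19 (SE 0.12), RPL22 of -0.18 (SE 0.11) and RPL39 of -0.15 (SE 0.12), pregnant over non-pregnant. MRPS31 had 0.20 (SE 0.10), while RPS2, EEF1D and EIF6 lay between -0.02 and 0.05. The adjusted p was 0.9997 for all 7 genes.

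Within the treatment groups the cows fell out as follows. Among ECP cows, RPS27 was 1851, 2244 and 2305 in later pregnant cows, against 2468, 2616 and 2767 in later non-pregnant cows. RPL22 was 4120, 4441 and 5002 in later pregnant ECP cows, against 5053, 5346 and 5951 in later non-pregnant ECP cows, and RPL39 was 3134, 3687 and 4077, against 4136, 4840 and 4987. For these 3 genes every later pregnant ECP cow lay below every later non-pregnant one, which 4.96% of all genes showed. The 3 genes varied together between cows (below) and are not separate observations. With 3 against 3 cows a two-sided exact permutation test cannot go below 0.1, and under upper quartile scaling only RPS27 kept the separation.

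The opposite order in ECP cows, found in 4.73% of all genes, was seen in none of the 7. Among CON cows none of the 7 genes was lower in every later pregnant cow (3.89% of all genes were): later pregnant cow E0819 was the highest of the group for RPL22 and RPL39, and later pregnant cow E0406 was the lowest for RPL22. MRPS31 did separate there, with 313, 320 and 322 in later pregnant CON cows, against 214, 280 and 289 in later non-pregnant CON cows, a pattern in that direction that 3.94% of all genes showed. For MRPS31 in ECP cows the values were 209, 243 and 245 in later pregnant cows, against 201, 205 and 237 in later non-pregnant cows, and these overlapped.

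The variation between cows of the same group was then examined, on log2 CPM (counts scaled to library size) from which the mean of each treatment group had been removed. Over the 21 pairs of genes the median Pearson r was 0.0952 across 12 cows, with 12 positive pairs and a range from -0.60 to 0.87. Over all pairs of 1482 genes taken at even steps through the table, the median r was -0.0019 and 49.8% of pairs were positive. The 7 genes therefore did not rise and fall as a block, and 3 of the 21 pairs passed (adjusted p at most 0.10 by permutation within groups): those among RPS27, RPL22 and RPL39.

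RPS27 and RPL22 had r = 0.868 and rho = 0.909 over the 12 cows (p = 0.0012, adjusted p = 0.013 for r and 0.0094 for rho, permutation test). The relation had the same sign in both groups. Within ECP r was 0.852 (exact permutation p = 0.0375, adjusted p = 0.146). Within CON it was 0.884 (exact permutation p = 0.0361, adjusted p = 0.331), so it did not pass within either group alone. Of the 12 cows, 11 lay on the same side of their group mean in both genes, with B0646 and C317 of ECP and 1814 and E0819 of CON well above it and D160 of ECP farthest below it. The exception was X156 of ECP, close to the mean in both. Without the 2 cows farthest from the median of RPS27, 1814 and D160, r was 0.836.

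RPS27 and RPL39 had r = 0.855 and rho = 0.825 (p = 0.00029, adjusted p = 0.0061 for r and 0.0106 for rho, permutation test). Within ECP r was 0.962 (exact permutation p = 0.0042, adjusted p = 0.0438). Within CON it was 0.821 (exact permutation p = 0.0472, adjusted p = 0.331). Without cows 1814 and D160 the pooled r was 0.864. RPL39 and RPL22 had r = 0.751 and rho = 0.790 (p = 0.0073, adjusted p = 0.0511 for r and 0.0272 for rho, permutation test). Within ECP r was 0.865 (exact permutation p = 0.0292, adjusted p = 0.146). Within CON it was 0.648 (exact permutation p = 0.174, adjusted p = 0.70). Without cows D160 and X228 the pooled r was 0.720. The ratio of RPS27 to RPL39 counts accordingly varied less between cows than either gene did in ECP, with a coefficient of variation of 5.20% against 13.5% for RPS27 and 16.8% for RPL39. The RPS27 count was 57.6 ± 3.00% of the RPL39 count in ECP cows and 57.4 ± 6.37% in CON cows (SD, n = 6 per group).

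With the means of the mapping classes removed as well, the 3 relations had r = 0.916 (RPS27 and RPL39), 0.835 (RPS27 and RPL22) and 0.877 (RPL39 and RPL22), all with an adjusted p of 0.0716 (permutation test). With the means of later pregnancy removed instead, r was 0.842, 0.825 and 0.693 in the same order, and none of the 3 passed (adjusted p = 0.106, 0.106 and 0.151, permutation test within 3 cows). RPL39 and RPL22 also failed to pass when cow B0646, C317 or D160 was left out, at r = 0.745, 0.691 and 0.662, with an adjusted p of up to 0.278 (permutation test). Among all 14813 other genes ranked by their r with RPS27, RPL22 was the 28th and RPL39 the 37th, and for RPL22 and RPL39 RPS27 was the 21st and the 25th.

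RPS2 stood outside this trio. Its r was 0.0952 with RPS27, 0.0802 with RPL22 and -0.03 with RPL39, and its closest member was EIF6 at 0.373 (adjusted p = 0.674, permutation test). E0952 set much of the variation of RPS2 in ECP. Without E0952 and B0646, the 2 cows farthest from the median, r of RPS2 was 0.494 with RPS27, 0.381 with RPL22 and 0.333 with RPL39. These values leave out both cows together and do not show the part of E0952. E0952 lay above the ECP mean in both RPS2 and RPS27 (by 0.225 and 0.0636 log2 CPM). B0646 lay below it in RPS2 (-0.116) and above it in RPS27 (0.239). Within CON, where RPS2 barely varied, r with EIF6 was 0.701 (exact permutation p = 0.140).

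MRPS31 leaned against the trio, least so against RPL39. With RPL39 its r was -0.34 (adjusted p = 0.674, permutation test), at -0.65 within ECP and -0.13 within CON. Its r was -0.60 with RPL22 (rho -0.70, adjusted p = 0.243 for r and 0.0940 for rho, permutation test) and -0.58 with RPS27 (rho -0.58, adjusted p = 0.255 for r, permutation test), so that neither passed on r. Within ECP r of MRPS31 with RPL22 was -0.87 (exact permutation p = 0.0097, adjusted p = 0.0681 over the 21 pairs), and within CON it was -0.47 (exact permutation p = 0.392). Without the 2 cows farthest from the median of RPL22 (D160 and E0406) the pooled r was -0.49. Both relations passed when CON cow E0819 was left out (r = -0.82 with RPL22 and -0.74 with RPS27), and the one with RPS27 also without X228 (r = -0.67). In CON, cow 1814 had the lowest MRPS31 and the highest RPS27.

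EEF1D had opposite relations in the groups. With RPL22 its r was -0.83 within ECP (rho -0.89, exact permutation p = 0.0417, adjusted p = 0.146) and 0.855 within CON (rho 0.886, exact permutation p = 0.0375, adjusted p = 0.331), and the pooled r was 0.273. With MRPS31 its r was 0.858 within ECP, where both genes ranked the 6 cows in the same order (exact permutation p = 0.0014, adjusted p = 0.0292), and -0.54 within CON (exact permutation p = 0.278). The order in ECP included a near tie, with EEF1D at 8.1984 log2 CPM in D160 and 8.1980 in E0952. The difference between ECP and CON in these relations was not tested.

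**Figure D3:**
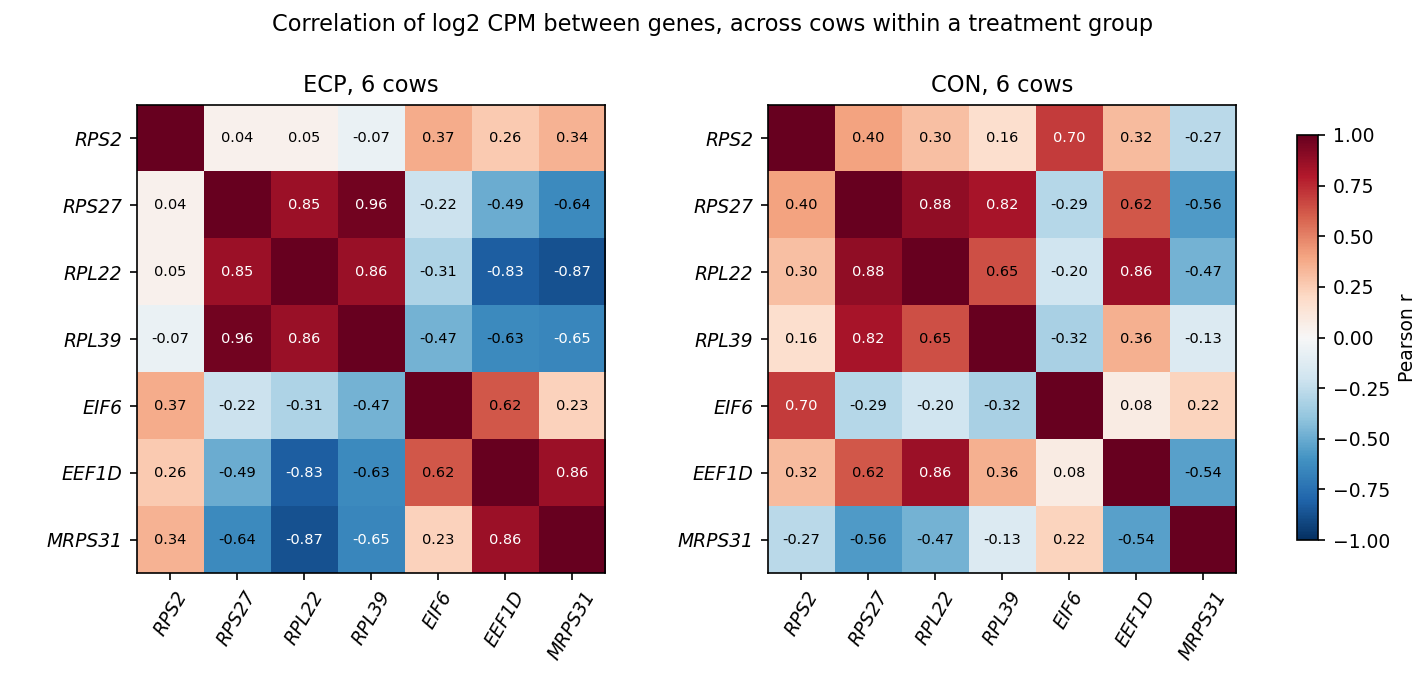
Pearson r of log2 CPM between each pair of the 7 genes across the 6 ECP cows (left) and the 6 CON cows (right), with the colour scale from -1 (blue) to 1 (red). RPS27, RPL22 and RPL39 form a block of positive values in both groups (0.852 to 0.962 in ECP and 0.648 to 0.884 in CON), and EEF1D with RPL22 changes sign, at -0.83 in ECP and 0.855 in CON.

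**Figure D4:**
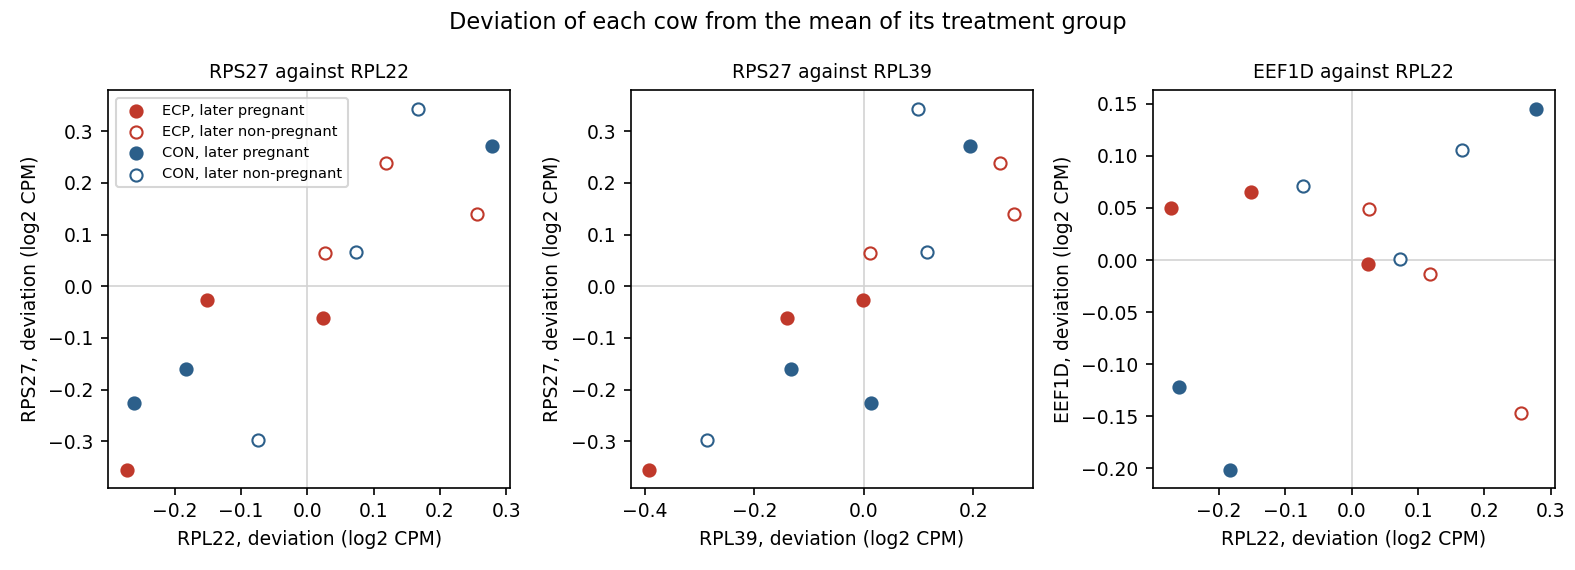
Deviation of each cow from the mean of its treatment group in log2 CPM, for RPS27 against RPL22 (left), RPS27 against RPL39 (middle) and EEF1D against RPL22 (right); red points are ECP and blue points CON, filled for later pregnant cows. The cows follow a rising line in the first pair of panels (r = 0.868 and 0.855 over 12 cows), and in the third panel ECP cows fall and CON cows rise.

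The genes of the whole table most like the mean standardized deviation of the 7 genes were found by their r with it over 12 cows. That mean did not stand for the 7 genes alike. The r of a gene with the mean of the others was highest for RPS27, at 0.486. It was -0.0151 for EIF6 and -0.39 for MRPS31, and between 0.267 and 0.421 for the rest. The r values that follow are the extremes over all genes and were not tested. ENSBTAG00000019701 (r = 0.941) and ENSBTAG00000031238 (r = 0.922) were the most alike, and ENSBTAG00000047083 (r = -0.90) and ENSBTAG00000047679 (r = -0.90) the most opposed. No symbol was available here for these IDs. For the same reason a list of 230 symbols of ribosomal proteins and translation factors could be matched to the counts only for the 7 genes themselves, and the other genes of the ribosome could not be described as a group.

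Cow E0952 was the ECP cow with the highest RPS2. Its 20395 normalized counts were 20.8% above the mean of the other 5 ECP cows and 6.31% below the CON mean, and they were 3.01% below the lowest CON cow, B1042. On a scale with the CON mean at 0 and the mean of the other 5 ECP cows at 1, E0952 stood at 0.281 for RPS2. It was therefore nearer to CON than to ECP in RPS2, without reaching the CON range.

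The other 6 genes did not share this position. E0952 stood at 0.873 for RPS27, 0.946 for RPL22 and 1.01 for RPL39, close to the other ECP cows. It stood at 0.763 for EIF6, 0.801 for EEF1D and 0.765 for MRPS31. It lay inside the CON range for MRPS31 alone (for MRPS31 and EEF1D under upper quartile scaling), and RPS2 was the only gene of the 7 for which it was the highest ECP cow.

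B0646 and C317 were nearer to CON than E0952 in the trio. B0646 stood at 0.531 for RPS27, and C317 at 0.343 for RPL22, and each of these cows lay inside the CON range for 3 of the 7 genes. E0952 was later non-pregnant, as were B0646 and C317, and its library had a higher mapped share and 11484725 counts. Over all genes tested E0952 was the highest ECP cow for 16.0%, within the 12.4% to 22.3% seen over the 6 ECP cows. Without E0952 the log2 fold change of RPS2 was -0.36, against -0.31 with it.

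**Figure D5:**
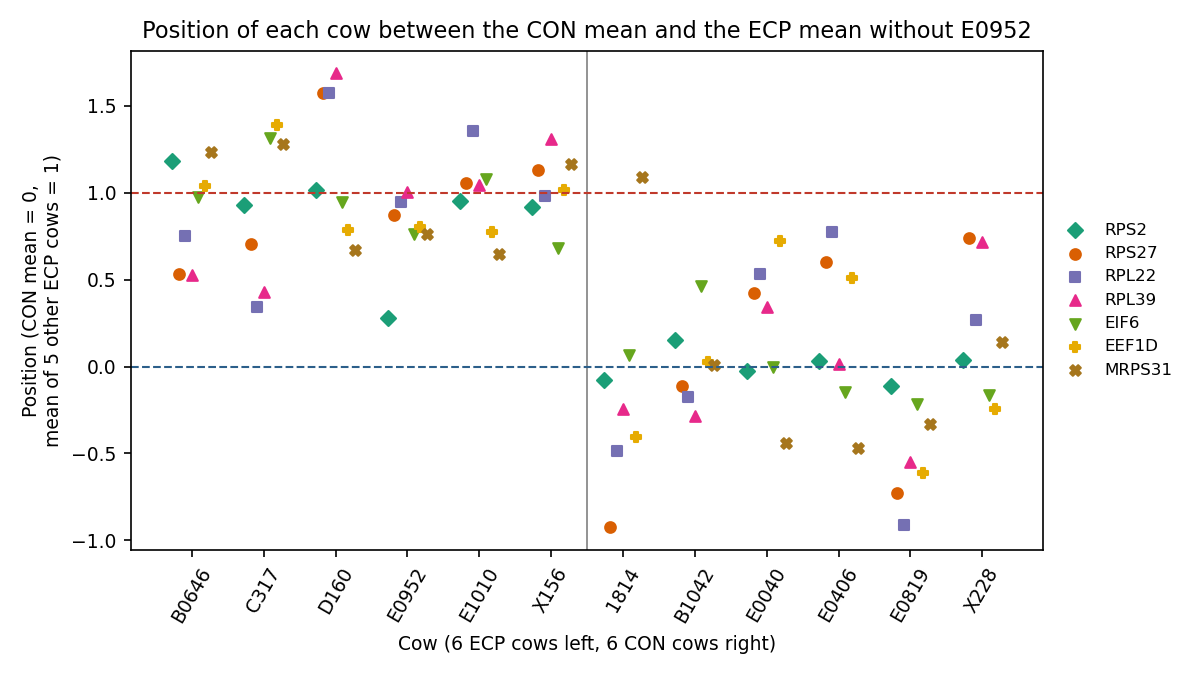
Position of each cow (horizontal axis, 6 ECP cows left and 6 CON cows right) for each of the 7 genes, where 0 is the CON mean and 1 the mean of the ECP cows without E0952. E0952 stands at 0.281 for RPS2 and between 0.763 and 1.01 for the other 6 genes.

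Plasma progesterone at the biopsy, for which the study had chosen similar cows, was 3.05 to 4.73 ng/mL in ECP cows and 2.82 to 3.86 ng/mL in CON cows. After removal of the group means, RPS2 had r = -0.65 with progesterone over the 12 cows (p = 0.0466, permutation test), which did not pass over the 7 genes (adjusted p = 0.326), and rho was -0.41 (p = 0.187, adjusted p = 0.376, permutation test). Within ECP r was -0.76 and within CON -0.20, and E0952 had both the lowest progesterone and the highest RPS2 of the ECP cows, while B0646 had the highest progesterone and the lowest RPS2. Without cows E0952 and X228, the 2 farthest from the median progesterone, r was -0.59, and with mapping class means removed it was -0.62. For the other 6 genes r lay between -0.29 and 0.105, and none of the 7 passed.

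Few markers of cell types carried a symbol, and those that did come from the study's own list of differing genes, so they are not an independent check of the tissue. The epithelial genes CEACAM1 and S100G were present at 3037 to 5490 and 3832 to 7929 normalized counts in ECP cows, against 1834 to 3003 and 2065 to 2908 in CON cows. The stromal gene ASPN had 743 to 1463 normalized counts in ECP cows, against 507 to 881 in CON cows. The leukocyte receptor CD244 had 16.7 to 21.1 normalized counts in ECP cows, against 23.4 to 53.1 in CON cows, and ALOX5, AMICA1 and SAMSN1 were lower at both ends of their range in ECP cows too. The part of these marker differences in the values of the 7 genes was not tested. Markers of smooth muscle and of red blood cells could not be matched.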

How the data were processed

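Raw read counts per Ensembl gene ID for 12 cows were deposited by the authors in a single table. According to the study's methods and the submitters' processing notes (CASAVA 1.8.2), paired reads were trimmed with SeqyClean, mapped with Bowtie2 2.1.0 to the masked UMD 3.1 assembly, sorted with SAMtools 0.1.18 and counted with HTSeq 0.5.4p2, with uniquely mapped reads only; the notes also name DESeq 1.12.1. Reads that map to several copies of a ribosomal protein gene were thereby lost. Groups, pregnancy and progesterone came from the labels, and symbols from the study's naming table, for which 123 of 135 IDs had one; its fold changes and p-values were not used. The RefSeq gene table (assembly NIAB-ARS_B.indTharparkar_mat_pri_1.0) held none of the Ensembl IDs and was used for names only.

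Genes whose mean normalized count exceeded 5 and their own standard deviation were fitted with edgeR 4.0.16 (TMM, quasi-likelihood test, Benjamini-Hochberg over 14814 genes, adjusted p at most 0.10) in R 4.3.3. Standard errors were derived from F as the fold change on the log2 scale over its root. DESeq2 1.42.0, limma voom (limma 3.58.1), other scalings and filters, the mapping class as a covariate and leaving out each cow were alternatives. Correlations used log2 CPM (prior count 2) with 100000 permutations within groups, and all 720 orders within a group of 6. The tests were checked on simulated counts. Named were the 7 genes, any gene of the fixed lists with a symbol, and at most 2 IDs without a symbol in each direction among the genes most like the 7. The 7 genes, the lists and the tests were chosen with earlier results of these data known.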

Additional observations from a re-analysis of the deposited data

Results flagged for a closer look

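RPS2 in ECP cow E0952 stood apart from the other ECP cows. Its gap to the next cow, X156, was 0.709 of the range of the 6 ECP cows (20395 normalized counts in E0952 and 17270 in X156), above Dixon's 95% critical value for 6 samples. It was the only one of 14 combinations of gene and group over that value, where chance gives about 1 in 20, and 6.68% of all genes in ECP and 7.59% in CON were over it. The cow had been singled out by its RPS2 level, so this is a description.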

How the results depend on the processing

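The ECP over CON difference of the 7 genes was negative in each gene under every alternative run, which their choice on this contrast favours. RPL22 moved by more than the spread between cows in the lower libraries (-0.16), and RPS27 and RPL22 in the higher ones (-0.68 and -0.58). Of all genes, ECP against CON called 0 in edgeR and limma voom (1295 and 1302 at an unadjusted p under 0.05) and 103 in DESeq2. In edgeR restricted to higher libraries it called 55, and restricted to later non-pregnant cows 1. For the interaction of treatment and pregnancy DESeq2 called 13 genes against 0 in edgeR, and leaving out 1 cow gave 0 to 1 (1 without E0040 and 1 without E0819). For lower against higher mapping libraries edgeR called 1 gene, DESeq2 107, and limma voom, upper quartile scaling and filterByExpr 0 each, with 0 to 3 when a cow was left out. Treatment by mapping class went to 177 genes in DESeq2. The number of the 7 genes for which E0952 lay inside the CON range was 2 under upper quartile scaling. The median r of the 7 genes with progesterone, -0.09, turned to 0.0080 without B1042 and 0.0611 without E0952 (range -0.19 to 0.0611). Values near 0 changed sign: the interaction of EIF6 was 0.0083 under upper quartile scaling, and RPS27 in lower against higher libraries was 0.0135 with limma voom and 0.0064 under upper quartile scaling. Leaving out 1 cow gave, for pregnant over non-pregnant, -0.049 to 0.029 for RPS2 and -0.057 to 0.012 for EEF1D; for the interaction with pregnancy, -0.15 to 0.0240 for RPS2, -0.063 to 0.026 for EIF6 and -0.27 to 0.0156 for RPL22; and for lower over higher libraries, -0.079 to 0.075 for RPS27, -0.11 to 0.0083 for RPL22 and -0.015 to 0.11 for MRPS31. The causes were not tested. No paired analysis was possible because ECP and CON cows were different animals and the labels give no pairing between them. With 3 cows in each combination of treatment and pregnancy, differences of a size near their standard errors (up to 0.25 for the interaction of RPS27) were not detectable. Differences of several standard errors could also miss the adjusted threshold over all genes. A p above the threshold does not show that values were alike. The values within later pregnant or later non-pregnant cows, the separation of pregnant from non-pregnant cows within a group, and the overlap of groups and position of E0952 under other scalings were chosen after seeing the data.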
